A study of Gallus gallus with 21 samples.

Results

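The proteasome genes of the chicken retina were followed over the first days after hatching. They were chosen as every gene whose symbol starts with PSMA to PSMG and a number, and 38 such genes were found among 18631. All of the 38 had at least 0.5 CPM (reads scaled to a fixed library total) in each of 21 libraries, so all were among the 12614 genes tested, which needed that level in 7 libraries. By role they are 7 genes of the alpha ring, 5 of the beta ring, 5 ATPases, 3 base genes without ATPase activity, 7 lid genes, 3 activators and inhibitors and 7 assembly factors, plus PSMC3IP. The lists of roles hold 7 beta ring genes, 6 ATPases and 8 lid genes, and no gene with the symbol PSMB5, PSMB6, PSMC4 or PSMD8 was found. The beta ring, the ATPases and the lid are therefore not complete here. The lists also hold 8 alpha ring genes and 5 activators and inhibitors, of which 7 and 3 were found. PSMC3IP shares only the letters of its name, since it is known in mammals as a protein of meiotic recombination. It is described apart below, but all counts, medians and means of the 38 genes include it.

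The libraries came from wild type White Leghorn chickens without any lens, kept under ordinary lighting. They are the control birds of work on retinal responses to optical defocus. Observation began at postnatal day 3, and 7 libraries each were made at 1, 3 and 6 days, that is at postnatal day 4, 6 and 9. Total retinal RNA was depleted of ribosomal RNA and sequenced with strand kept, and the comparisons ask how levels change with age. The labels do not say whether each library is a separate bird, so the p-values measure the spread between libraries. In RNA of a whole tissue, fewer cells of a type and less RNA per cell cannot be told apart.

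The proteasome is the protease of the cytosol and nucleus that degrades proteins tagged with ubiquitin. Its core is a stack of alpha and beta rings, with the cutting sites on the inner beta rings and a gate in the outer alpha rings. A regulatory particle caps the core: the ATPases of its base unfold the substrate and thread it through the gate, while its lid removes the ubiquitin chain. Photoreceptors and other retinal neurons depend on this route to clear misfolded protein, and the subunits are usually made in matched amounts.

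Total reads per library, from the spacing of low values, were 27.7 to 41.4 megareads, of which the genes given hold 29.9% to 34.2%. That share averaged 30.99%, 31.8% and 33.4% at 1, 3 and 6 days. Retina was seen in all libraries, since the summed level of 18 retinal markers was 921 to 1257, 1119 to 1578 and 1342 to 1576 CPM at the 3 ages. Of these, 11 of 17 tested rose from 1 to 6 days (against 30.0% of all genes). From 3 to 6 days 5 of them rose (against 17.4%) and 1 fell (against 4.93%). Of 5 lens genes, CRYAA, MIP, BFSP2 and LIM2 were at or near 0 and BFSP1 was at 2.48 to 4.095 CPM, and their summed level was 2.58 to 3.64, 2.73 to 4.18 and 2.91 to 4.15 CPM at the 3 ages. Summed markers of pigment epithelium were 19.2 to 24.6, 19.8 to 24.2 and 20.8 to 25.6 CPM, and those of endothelium 47.2 to 67.4, 39.1 to 58.5 and 48.1 to 69.1 CPM. Most of the former was MITF (mean 17.8 CPM), with RPE65 at 3.18 CPM and TYRP1, PMEL, TTR, TYR and BEST1 at 0.551 CPM or less. Most of the latter was KDR and PECAM1 (means 35.3 and 18.1 CPM), with TEK, CDH5 and CLDN5 at 0.282 CPM or less. The sums thus rest on few genes and do not by themselves show these cell types. The part of these cell types in the results was not tested. The W chromosome is carried by female birds, and its transcript HINTW reached 121 to 147 CPM in 13 libraries but only 0.0286 to 0.549 CPM in the others. The 13 were 3, 4 and 6 of the 7 libraries at 1, 3 and 6 days, so that this division moved with age, and values within it are given below. None of the 38 genes lies on chromosome Z.

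More proteasome genes passed the test between 3 and 6 days than between 1 and 3 days, and those that passed were higher at the later age. The interval from 3 to 6 days is also the longer of these. Changes are on the scale of log2(CPM + 0.5), later minus earlier, tested with limma, and "rose" or "fell" means an adjusted p under 0.05. From 3 to 6 days 16 of 38 rose (42.1%) and 0 fell, against 17.4% of all genes tested that rose and 4.93% that fell. From 1 to 3 days 2 rose (5.26%) and 0 fell, against 7.71% and 2.43% of all genes. Over the whole span from 1 to 6 days 21 rose (55.3%) and 0 fell, against 30.0% and 2.57% of all genes. All 38 changes from 1 to 6 days lay above 0 in value, whereas 76.4% of all genes did. The test for a difference at any time passed for 23 members (60.5%, against 38.6% of all genes). The shares of all genes were higher with a floor of 2.5 CPM, which 37 members passed. From 3 to 6 days 17 of these 37 rose, against 23.6% of all genes above that floor. From 1 to 6 days 22 rose (against 38.2%), and 24 differed at any time (against 48.1%).

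The typical gene of these libraries moved as well, and this bears on the counts. The median change of all genes tested was 0.07 from 1 to 3 days, 0.07 from 3 to 6 days and 0.14 from 1 to 6 days. The members' medians were 0.03, 0.18 and 0.23. So 13 of 38 members lay above the median gene in the first interval, 28 in the second and 29 over the whole span. When the libraries were scaled by median of ratios, which sets the median gene near 0, the members' median turned to -0.04 from 1 to 3 days and stayed above 0 later, at 0.11 and 0.09. Under that scaling 11 members rose from 3 to 6 days (28.9%, against 8.63% of all genes) and 0 fell (8.51%). The 5 calls lost in that interval were PSMA4, PSMC1, PSMC3, PSMD2 and PSMD4, with adjusted p of 0.0629, 0.0978, 0.246, 0.0588 and 0.0845. Only 5 rose from 1 to 6 days (13.2%, against 8.25%) and 0 fell (8.91%), and these were PSMC2, PSMC5, PSMD1, PSMD2 and PSMD11. From 1 to 3 days 0 rose (4.52%) and 2 fell (5.51%), namely PSMB1 and PSMG1. The test for a difference at any time passed for 12 members under that scaling (31.6%), near the share of all genes (27.7%).

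**Figure D1:**
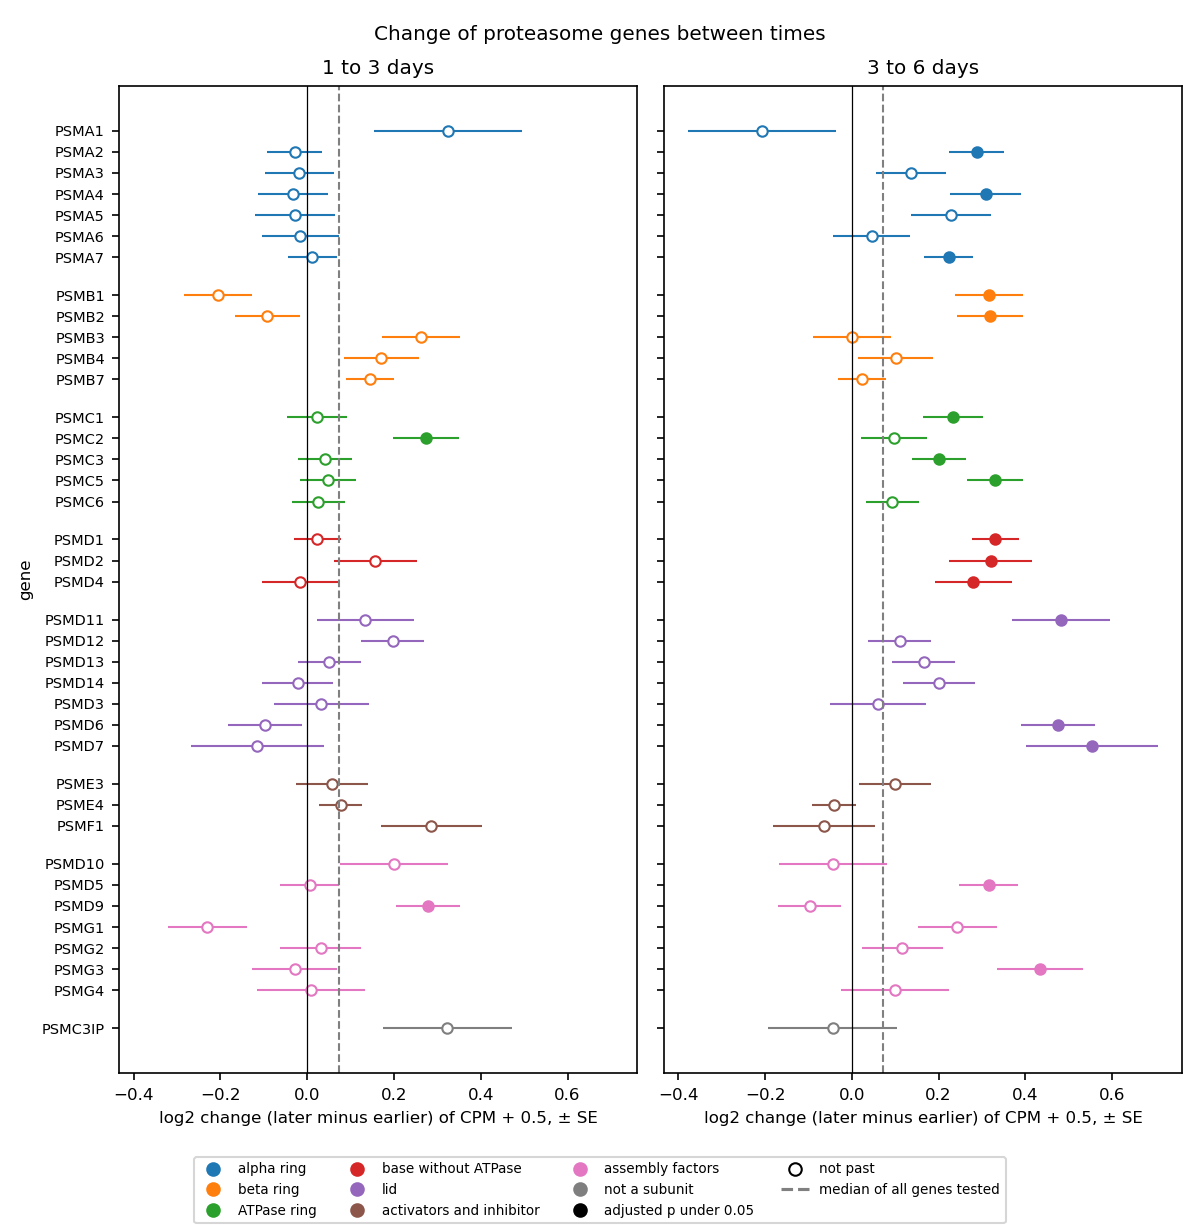
Change of each of the 38 genes from 1 to 3 days (left) and from 3 to 6 days (right), as log2 change of CPM + 0.5 with its standard error, coloured by role, filled where the adjusted p was under 0.05, with a dashed line at the median of all genes tested. The left panel has 2 filled points, PSMC2 and PSMD9, and the right panel has 16, the highest at 0.55 for PSMD7.

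**Figure D2:**
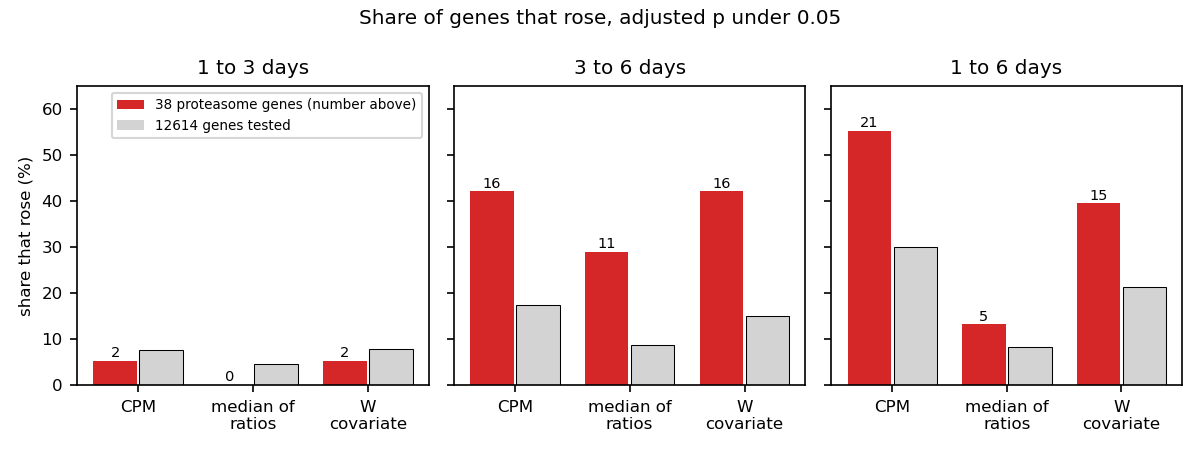
Share of genes that rose (%, bars from 0) among the 38 proteasome genes (red, with their number) and among the 12614 genes tested (grey), for CPM, for median-of-ratios scaling and with the level of W-linked transcripts as a covariate. From 3 to 6 days the red bars stand at 42.1%, 28.9% and 42.1%, and the grey ones at 17.4%, 8.63% and 15.0%.

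The alpha ring, which opens and closes the entrance to the core, rose in part. Of its 7 genes 3 rose from 3 to 6 days (against 17.4% of all genes), PSMA2, PSMA4 and PSMA7. These 3 rose from 1 to 6 days too (against 30.0%), while 0 moved past the threshold from 1 to 3 days. Under median-of-ratios scaling PSMA2 and PSMA7 kept their calls from 3 to 6 days, and 0 of the 3 did from 1 to 6 days. PSMA7 was measured at 17.5 to 21.9 CPM at 1 day (median 18.7), 18.1 to 21.8 CPM at 3 days (median 19.3) and 22.1 to 23.8 CPM at 6 days (median 22.7). Every library at 6 days lay above every library at 1 and at 3 days, and the 6-day libraries were close together. Its change from 3 to 6 days was 0.22 (SE 0.06, adjusted p = 0.00644). PSMA2 ranged over 10.7 to 12.8 CPM at 1 day (median 11.2), 9.93 to 13.3 CPM at 3 days (median 11.04) and 12.99 to 14.3 CPM at 6 days (median 13.9). All libraries at 6 days exceeded the highest at 1 day, but they overlapped those at 3 days, and the change from 3 to 6 days was 0.29 (SE 0.06, adjusted p = 0.00234). PSMA4 lay at 16.2 to 19.3 CPM at 1 day (median 18.1), 14.6 to 21.7 CPM at 3 days (median 18.1) and 17.4 to 25.7 CPM at 6 days (median 21.6). Its groups overlapped, with library C41R high at 3 days and C62L low at 6 days, and the change from 3 to 6 days was 0.31 (SE 0.08, adjusted p = 0.00873).

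Among the alpha genes that did not pass, PSMA3, PSMA5 and PSMA6 changed by 0.14, 0.23 and 0.05 from 3 to 6 days, with adjusted p of 0.231, 0.0756 and 0.7501. PSMA1 went the other way in value, at 13.5 to 22.6 CPM at 1 day (median 16.9), 11.8 to 30.9 CPM at 3 days (median 21.6) and 13.4 to 25.6 CPM at 6 days (median 18.7). Its libraries were spread widely at every age, and neither its first change of 0.32 (SE 0.17, adjusted p = 0.229) nor its second of -0.21 (SE 0.17, adjusted p = 0.416) passed. PSMA1 had the largest spread of the 38, with a mean coefficient of variation within age of 24.0%.

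The beta ring, which carries the cutting sites, had genes that passed in different comparisons. All 5 that were found, without PSMB5 and PSMB6, passed the test for a difference at any time, as did 38.6% of all genes. Under median-of-ratios scaling 2 of the 5 passed it (against 27.7%), PSMB1 and PSMB2. PSMB3, PSMB4 and PSMB7 did not pass it with the W covariate either (adjusted p = 0.0669, 0.109 and 0.0875). From 3 to 6 days PSMB1 and PSMB2 rose (against 17.4% of all genes). From 1 to 6 days PSMB2, PSMB3, PSMB4 and PSMB7 rose (against 30.0%), all 4 of which were lost under median-of-ratios scaling and with the W covariate. PSMB1, a beta subunit without a cutting site of its own, stood at 21.9 to 26.6 CPM at 1 day (median 25.5), 18.1 to 25.2 CPM at 3 days (median 22.3) and 23.5 to 29.97 CPM at 6 days (median 26.3). It was lowest at 3 days, where 1 of 7 libraries lay above the mean at 1 day, although the groups overlapped. Its first change was -0.21 (SE 0.08, adjusted p = 0.0926), and it then rose by 0.32 (SE 0.08, adjusted p = 0.00565). Over the whole span it changed by 0.11 (SE 0.08, adjusted p = 0.281), so that the ends of the series were not called different.

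PSMB2, another structural beta subunit, ran at 7.895 to 9.03 CPM at 1 day (median 8.63), 6.56 to 9.39 CPM at 3 days (median 7.78) and 9.09 to 11.7 CPM at 6 days (median 10.2). The 6-day libraries all exceeded those at 1 day, with C62L well above the rest, and the change from 3 to 6 days was 0.32 (SE 0.08, adjusted p = 0.00423). PSMB3, also structural, was at 4.12 to 5.65 CPM at 1 day (median 4.82), 4.98 to 7.45 CPM at 3 days (median 5.49) and 5.13 to 6.52 CPM at 6 days (median 5.99). In that gene 7 of 7 libraries at 3 days exceeded the mean at 1 day and the range at 6 days lay within that at 3 days, with changes of 0.26 (SE 0.09, adjusted p = 0.0617) and 0.00 (adjusted p = 0.9998). PSMB4 and PSMB7, the latter with the trypsin-like cutting site in mammals, had first changes of 0.17 and 0.15 and second changes of 0.10 and 0.02, of which 0 passed. PSMB7 varied least of all members between libraries, with a mean coefficient of variation within age of 5.51%.

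The ATPase ring is the motor that unfolds substrates. From 3 to 6 days 3 of its 5 genes rose (against 17.4% of all genes), PSMC1, PSMC3 and PSMC5. From 1 to 6 days 4 of 5 rose (against 30.0%), with PSMC2 added. Under median-of-ratios scaling 1 of the 3 was left from 3 to 6 days, PSMC5, and from 1 to 6 days PSMC2 and PSMC5. PSMC5 (chromosome 27, 4119809 to 4123301, plus strand) was at 7.002 to 9.27 CPM at 1 day (median 7.72), 7.67 to 8.98 CPM at 3 days (median 7.83) and 9.06 to 11.2 CPM at 6 days (median 10.3). All libraries at 6 days exceeded all at 3 days, while 1 library at 1 day, C21R, reached into the range at 6 days. It changed by 0.05 (SE 0.07, adjusted p = 0.672) and then rose by 0.33 (SE 0.07, adjusted p = 0.000998). Relative to the median gene, its change from 1 to 6 days was 0.24.

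PSMC2 rose from 1 to 3 days, and its change from 3 to 6 days did not pass. Its libraries ranged over 11.1 to 14.2 CPM at 1 day (median 13.1), 11.8 to 18.6 CPM at 3 days (median 15.9) and 15.7 to 17.4 CPM at 6 days (median 16.9). The 7 libraries at 6 days were above all those at 1 day, while those at 3 days were scattered, with C42L among the 1-day values. The first change was 0.27 (SE 0.08, adjusted p = 0.0216) and the second 0.10 (SE 0.08, adjusted p = 0.384). The test of the second change minus the first gave -0.18 (SE 0.13, adjusted p = 0.431), so that a difference between its intervals was not called. The first call was lost under median-of-ratios scaling (adjusted p = 0.05002), and also without C18R, C33R or C34L in turn (highest adjusted p 0.0586). PSMC1 was at 13.7 to 16.4 CPM at 1 day (median 15.2), 13.1 to 18.3 CPM at 3 days (median 15.2) and 15.7 to 20.7 CPM at 6 days (median 17.8). It overlapped between all ages and rose by 0.23 (SE 0.07, adjusted p = 0.0171) from 3 to 6 days. PSMC3, with a change of 0.20 (SE 0.06, adjusted p = 0.0247), was lost without C31L, C33R or C62L (highest adjusted p 0.0642), and it overlaps RAPSN on its own strand. PSMC6 changed by 0.09 (SE 0.06, adjusted p = 0.285).

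The base also holds large scaffold subunits and a ubiquitin receptor. These 3 genes all rose from 3 to 6 and from 1 to 6 days (against 17.4% and 30.0% of all genes). Under median-of-ratios scaling PSMD1 alone kept its call from 3 to 6 days, and PSMD1 and PSMD2 kept theirs from 1 to 6 days. PSMD1 (chromosome 9, 15291664 to 15353112, plus strand), a scaffold on which the base is built, was at 30.2 to 37.2 CPM at 1 day (median 32.1), 31.1 to 37.6 CPM at 3 days (median 33.6) and 38.9 to 45.1 CPM at 6 days (median 42.3). The ranges at 1 and 3 days nearly coincided, and every library at 6 days lay above every other library. It changed by 0.02 (SE 0.05, adjusted p = 0.824) and then rose by 0.33 (SE 0.05, adjusted p = 0.000192). Its change from 1 to 6 days was 0.35 (SE 0.05, adjusted p = 0.000132), or 0.22 above the median gene. Of the 38 members only PSMD1 kept its calls in both comparisons with 6 days under each of 13 other settings and without each of the 21 libraries. PSMD1 overlaps HTR2B, which lies on the other strand.

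PSMD2, the other scaffold and a docking site for shuttle proteins, was at 5.48 to 8.93 CPM at 1 day (median 7.88), 6.99 to 10.3 CPM at 3 days (median 8.18) and 9.503 to 12.9 CPM at 6 days (median 10.7). Its 6-day libraries were above all 1-day libraries and overlapped those at 3 days, where C41R and C44R were high. PSMD2 rose by 0.32 (SE 0.10, adjusted p = 0.0187) from 3 to 6 days and by 0.48 (SE 0.10, adjusted p = 0.000884) from 1 to 6 days, the latter under every setting run. PSMD4, the receptor for ubiquitin chains, ran at 11.2 to 16.3 CPM at 1 day (median 15.01), 12.3 to 17.1 CPM at 3 days (median 13.6) and 15.3 to 20.5 CPM at 6 days (median 16.2). The groups overlapped, although 7 of 7 libraries at 6 days exceeded the mean at 3 days. The change from 3 to 6 days was 0.28 (SE 0.09, adjusted p = 0.0251). That call of PSMD4 was lost without C31L, C57L or C58R in turn (highest adjusted p 0.0614). Its rise from 1 to 6 days was lost under median-of-ratios scaling (adjusted p = 0.345) and with the W covariate (adjusted p = 0.117).

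The 3 largest rises of the 38 genes from 3 to 6 days were in the lid. From 3 to 6 days 3 of 7 lid genes rose (against 17.4% of all genes), PSMD6, PSMD7 and PSMD11. From 1 to 6 days PSMD12 and PSMD13 were added (against 30.0% of all genes that rose). Under median-of-ratios scaling the 3 kept their calls from 3 to 6 days, and PSMD11 alone kept its call from 1 to 6 days. PSMD6 (chromosome 12, 14010749 to 14017129, minus strand), a structural lid subunit, was at 8.98 to 10.4 CPM at 1 day (median 9.45), 6.78 to 12.1 CPM at 3 days (median 8.51) and 11.1 to 14.1 CPM at 6 days (median 12.8). At 3 days C41R alone reached the 6-day range, and all 6-day libraries were above all 1-day libraries. It changed by -0.10 (SE 0.09, adjusted p = 0.493) and then rose by 0.48 (SE 0.09, adjusted p = 0.000418). PSMD11 (chromosome 27, 3891249 to 3897831, minus strand), which clamps lid and core together and in mammals has been linked to proteasome activity in stem cells, was at 2.44 to 3.603 CPM at 1 day (median 3.11), 2.68 to 4.39 CPM at 3 days (median 3.34) and 3.76 to 6.37 CPM at 6 days (median 4.86). No 6-day library fell within the 1-day range, and C62L was the highest of all. PSMD11 rose by 0.48 (SE 0.11, adjusted p = 0.00356) from 3 to 6 days and by 0.62 (SE 0.11, adjusted p = 0.000428) from 1 to 6 days, the largest change of a member over that span and 0.48 above the median gene.

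PSMD7 (chromosome 11, 19074876 to 19080178, minus strand), the partner that holds the deubiquitinase PSMD14 in place, was at 16.6 to 20.95 CPM at 1 day (median 18.1), 10.99 to 27.8 CPM at 3 days (median 16.2) and 19.7 to 35.3 CPM at 6 days (median 24.6). Its libraries were close together at 1 day and widely spread later. At 3 days C41R stood at 27.8 CPM while the other libraries lay between 10.99 and 20.9 CPM, and at 6 days C64L stood at 35.3 CPM with the others between 19.7 and 26.7 CPM. The change from 3 to 6 days was 0.55 (SE 0.15, adjusted p = 0.0111), the largest of the members in that interval but with the second widest standard error. Its change from 1 to 6 days, 0.44 (SE 0.15, adjusted p = 0.02997), was lost without C22L, C64L or C65L (highest adjusted p 0.0772).

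PSMD12, a structural lid subunit, was at 6.64 to 7.41 CPM at 1 day (median 6.76), 6.83 to 9.17 CPM at 3 days (median 7.86) and 7.14 to 9.78 CPM at 6 days (median 8.87). Levels stepped up at each age by value, with overlap between neighbouring ages, and only the whole span passed, at 0.31 (SE 0.07, adjusted p = 0.00279). The deubiquitinase PSMD14 itself changed by 0.20 (SE 0.08, adjusted p = 0.0836) from 3 to 6 days, and PSMD3 by 0.06 (SE 0.11, adjusted p = 0.733), neither past the threshold. PSMD13 changed by 0.17 (SE 0.07, adjusted p = 0.102) in that interval and by 0.22 (SE 0.07, adjusted p = 0.0249) from 1 to 6 days, a rise lost without C18R, C59L or C62L (highest adjusted p 0.0577).

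**Figure D3:**
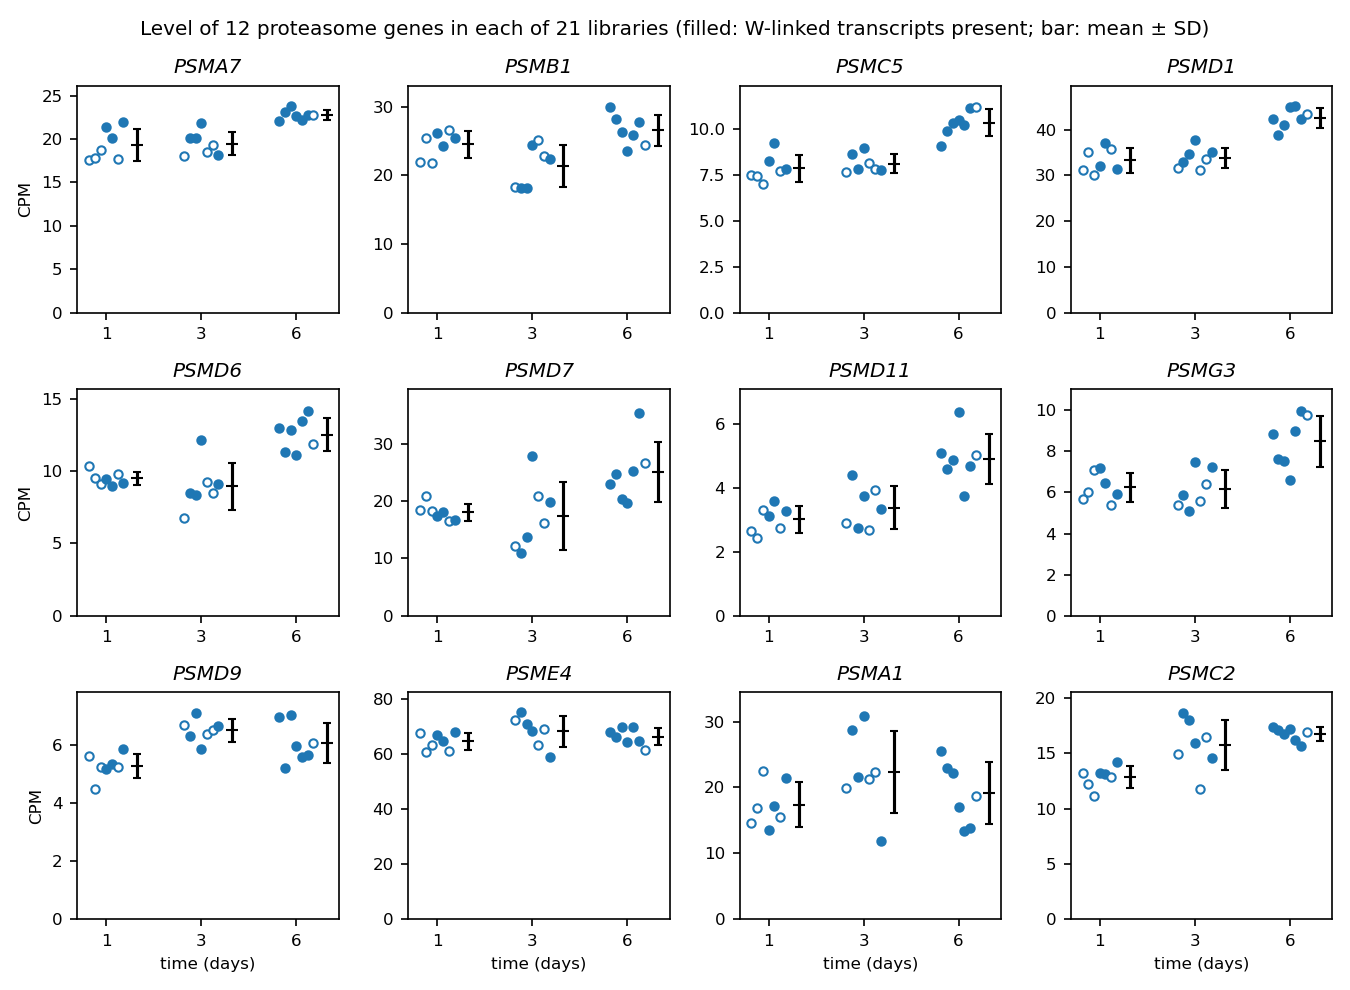
CPM of 12 genes in each of the 21 libraries by time (days), with a separate axis from 0 for each gene, filled points for libraries with W-linked transcripts and the mean ± SD of 7 libraries beside them. PSMA7, PSMC5 and PSMD1 show all 6-day libraries above all 3-day libraries, whereas PSME4 and PSMA1 overlap at every age.

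Of 5 listed activators and inhibitors, which include alternative caps of the core, 3 were found, and these did not move past the threshold at any time. PSME4, a large ATP-independent activator with a role in histone turnover in mammals, was at 60.8 to 68.00 CPM at 1 day (median 64.7), 58.7 to 75.4 CPM at 3 days (median 68.99) and 61.3 to 69.7 CPM at 6 days (median 66.3). These ranges overlapped almost completely, and the changes were 0.08 and -0.04 (adjusted p = 0.333 and 0.597). PSME3, the nuclear activator, was at 7.38 to 9.33 CPM at 1 day (median 8.83), 8.09 to 10.4 CPM at 3 days (median 8.500) and 7.58 to 10.97 CPM at 6 days (median 10.2). It overlapped at every age and changed by 0.16 (SE 0.08, adjusted p = 0.154) from 1 to 6 days. PSMF1, an inhibitor of the core in vitro, was at 2.09 to 4.47 CPM at 1 day (median 2.83), 3.02 to 4.46 CPM at 3 days (median 3.74) and 3.19 to 4.33 CPM at 6 days (median 3.55). Its first change of 0.29 (SE 0.12, adjusted p = 0.115) was among the larger of the 38 but did not pass.

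The assembly factors are chaperones that bind half-built particles and leave before the proteasome works. Of these 7, PSMD5 and PSMG3 rose from 3 to 6 days and from 1 to 6 days (against 17.4% and 30.0% of all genes). PSMD9 rose from 1 to 3 days (against 7.71%). Under median-of-ratios scaling PSMD5 and PSMG3 kept their calls from 3 to 6 days. Both were lost from 1 to 6 days (adjusted p = 0.0769 and 0.0614). PSMG3, a chaperone of alpha ring assembly, was at 5.38 to 7.21 CPM at 1 day (median 6.03), 5.07 to 7.46 CPM at 3 days (median 5.86) and 6.63 to 9.95 CPM at 6 days (median 8.86). Libraries at 6 days overlapped the upper part of the earlier ages, and the change from 3 to 6 days was 0.43 (SE 0.10, adjusted p = 0.00288). PSMD5, a chaperone of the base, was at 8.29 to 12.4 CPM at 1 day (median 10.8), 10.1 to 11.5 CPM at 3 days (median 10.6) and 12.3 to 14.9 CPM at 6 days (median 13.4). All its 6-day libraries lay above all 3-day libraries, with C18R at 1 day just within their range, and it rose by 0.32 (SE 0.07, adjusted p = 0.00202).

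PSMD9, another base chaperone, ran at 4.47 to 5.84 CPM at 1 day (median 5.23), 5.84 to 7.095 CPM at 3 days (median 6.51) and 5.19 to 7.02 CPM at 6 days (median 5.96). It was highest at 3 days, where 7 of 7 libraries exceeded the mean at 1 day, and at 6 days it was spread over both earlier ranges. It rose by 0.28 (SE 0.07, adjusted p = 0.0167) and then changed by -0.10 (SE 0.07, adjusted p = 0.367), and the rise was lost under median-of-ratios scaling (adjusted p = 0.0708). PSMG1, which pairs with PSMG2 in alpha ring assembly, took the reverse course by value, at 7.62 ± 0.978, 6.43 ± 0.848 and 7.67 ± 0.702 CPM at 1, 3 and 6 days (mean ± SD, n = 7 each). In PSMG1 0 of 7 libraries at 3 days exceeded the mean at 1 day, and the change of -0.23 (SE 0.09, adjusted p = 0.102) passed under median-of-ratios scaling (adjusted p = 0.0361). PSMG2, PSMG4 and PSMD10, a base chaperone known in mammals as an oncoprotein of the liver, did not pass in any pair of ages. PSMC3IP, which is no subunit, was at 1.47 to 3.22 CPM at 1 day (median 1.65), 1.99 to 3.03 CPM at 3 days (median 2.57) and 1.68 to 3.38 CPM at 6 days (median 2.53). It overlapped at every age, with changes of 0.32 (SE 0.15, adjusted p = 0.163) and -0.04 (SE 0.15, adjusted p = 0.862).

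Whether the change of the second interval differed from that of the first was tested directly, a contrast added after the values were seen. The second interval, postnatal day 6 to 9, is longer than the first, day 4 to 6. The contrast takes the changes as they are and not per day, so a change of pace was not tested. The change from 3 to 6 days exceeded that from 1 to 3 days in PSMB1, PSMB2, PSMD1 and PSMD6, 4 of 38 (10.5%, against 6.33% of all genes), and was lower in 0 (against 5.48%). The differences were 0.52, 0.41, 0.31 and 0.57, with adjusted p of 0.0131, 0.0424, 0.0328 and 0.0125. For PSMD9 it was -0.38 with an adjusted p of 0.0558, so its reverse course did not pass. The 2 intervals share the 3-day libraries, so a low library at 3 days lowers the first change and raises the second. Groups without any overlap were counted too: 4 members (10.5%) lay wholly higher at 6 than at 3 days (against 3.65% of all genes), PSMA7, PSMC5, PSMD1 and PSMD5. From 1 to 6 days 8 did so (21.1%, against 9.31%), and from 1 to 3 days 0 (against 1.53%).

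Taken library by library, the members were higher on average at 6 days than before. The mean deviation of the 38 genes from their average over all 21 libraries was 0.08 to 0.19 on the log2 scale in the libraries at 6 days. In those at 1 and 3 days it was -0.18 to 0.06. Taken relative to the median gene of the same library, it was 0.01 to 0.11 at 6 days and -0.09 to 0.01 at the earlier ages. The only library before 6 days above the median gene was C41R at 3 days, at 0.01, and at 6 days C64L and C65L were the lowest, at 0.02 and 0.01.

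**Figure D4:**
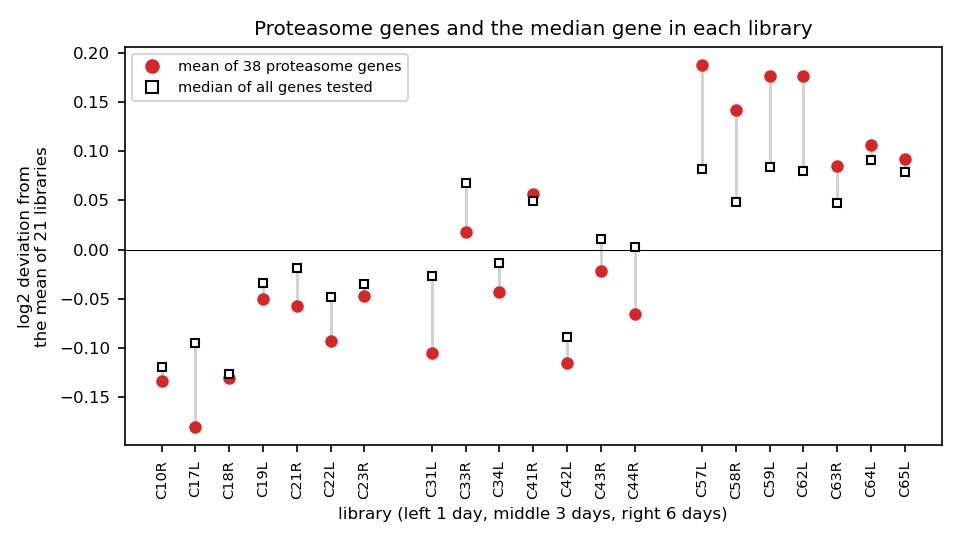
Mean log2 deviation of the 38 proteasome genes (red) and median deviation of all genes tested (squares) from their average over 21 libraries, for each library in order of age. The red points of the 6-day libraries lie at 0.08 to 0.19 and above their squares, and before 6 days they lie at -0.18 to 0.06.

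The median coefficient of variation within age was 10.7% over the members and 13.7% over all genes tested. The genes were not matched for level, so these values do not show that the members were steadier than genes of like level. For pairs of genes, the deviation of the median gene was first taken off each library, and then the mean of each age. The first step removes a shift that most genes of a library share. Pairs of members compared in this way over 21 libraries had a median r of 0.01 over 703 pairs, with quartiles of -0.248 and 0.259. Pairs of a member with any other gene tested had quartiles of -0.195 and 0.195, so that pairs of members were spread more widely in both directions. The other genes were not matched for level here either, so the wider spread is not shown to be a trait of proteasome genes. As a description of pairs picked after seeing their values, r was 0.89 for PSMA4 with PSMD7 and -0.88 for PSMD3 with PSMD7. PSMD7, PSMA4, PSMD6, PSMC6 and PSMD14 were all highest at 3 days in C41R, which was the highest library at that age for 14 of 38 members. At 6 days C62L was the highest library for 12 members and the lowest for 8. These points share libraries and their depth, and the cause was not tested.

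The division by W-linked transcripts was carried through the tests. The covariate was the mean of 35 genes of the W chromosome, and with it 2, 16 and 15 members rose from 1 to 3, 3 to 6 and 1 to 6 days, against 7.84%, 15.0% and 21.4% of all genes. It left 0 falls in each, against 2.83%, 5.23% and 2.07% of all genes, and 18 members that differed at any time, against 32.7%. The covariate itself passed for 0 members, as against 589 genes in all (4.67%). The 35 genes that make up the covariate are among the genes tested, and 0 members lie on chromosome Z. These shares are therefore not on a like basis. Whether the change from 1 to 3 days differed between libraries with and without these transcripts was tested too, and limma called 0 of all 12614 genes, so that a count of 0 members tells nothing of the members. At an unadjusted p under 0.05 there were 0 members and 428 genes in all (3.39%). Among just the 13 libraries that carry W-linked transcripts, 0 members rose from 1 to 3 days (against 1.38%), 5 from 3 to 6 days (against 6.64%) and 7 from 1 to 6 days (against 6.15%). The 5 were PSMB1, PSMC5, PSMD1, PSMD5 and PSMD6, which were called with and without the other libraries. Of the calls in all 21 libraries, 11 of 16 from 3 to 6 days and 14 of 21 from 1 to 6 days were lost, with fewer libraries tested. The other libraries could not be compared across all ages, since 1 of them was at 6 days.

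Partners of the proteasome were counted in lists chosen with earlier results of these data known. The counts of these short lists stand against 7.71%, 17.4% and 30.0% of all genes that rose from 1 to 3, 3 to 6 and 1 to 6 days. Some of the listed genes lie on chromosome Z, and values with the W covariate are not given for these lists. Of 3 lid and base genes that carry other symbols, SEM1, a small lid subunit, was the 1 that rose from 3 to 6 days, at 10.7 ± 1.103, 9.86 ± 1.21 and 12.6 ± 0.8904 CPM at 1, 3 and 6 days (mean ± SD, n = 7). Its change was 0.35 (SE 0.08, adjusted p = 0.00227). Of 4 further factors of assembly and nuclear import, AKIRIN2, which brings proteasomes into the nucleus in mammals, rose from 1 to 6 days by 0.31 (SE 0.07, adjusted p = 0.00175). Of 6 enzymes that bind the particle 2 rose from 3 to 6 days, among them the ubiquitin trimmer USP14, by 0.29 (SE 0.07, adjusted p = 0.00688), and the ubiquitin ligase TRIP12, by 0.13 (SE 0.04, adjusted p = 0.0214). The ligase RNF126 rose by 0.39 (SE 0.12, adjusted p = 0.0144) from 1 to 6 days. Scaled by median of ratios, the lists had 1, 0 and 1 rises from 3 to 6 days and 0 from 1 to 6 days, and TRIP12 was the gene that lost its call in the former (adjusted p = 0.3796). Under that scaling TRIP12 fell from 1 to 3 days (adjusted p = 0.0329), as did 5.51% of all genes.

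The route that raises proteasome genes when the particle is short, through the transcription factor NFE2L1, had 2 of 9 genes that rose from 3 to 6 days and 0 that fell, near the shares of all genes (17.4% and 4.93%). DDI2, the protease that activates NFE2L1 and also a shuttle factor, was at 38.6 ± 4.85, 35.02 ± 3.13 and 48.3 ± 4.45 CPM at 1, 3 and 6 days. It rose by 0.46 (SE 0.07, adjusted p = 0.000203) from 3 to 6 days. NFE2L1 itself was at 12.8 ± 1.11, 14.8 ± 2.29 and 17.6 ± 1.81 CPM and rose by 0.24 (SE 0.08, adjusted p = 0.0411) from 3 to 6 days and by 0.44 (SE 0.08, adjusted p = 0.0006798) from 1 to 6 days. Its call from 3 to 6 days was lost under median-of-ratios scaling (adjusted p = 0.124), and DDI2 kept its own (adjusted p = 0.000478). Of 9 shuttle factors, which carry tagged proteins to the particle, 2 rose from 3 to 6 days and 3 from 1 to 6 days, with NUB1 at 0.38 (SE 0.07, adjusted p = 0.000393) in the former and UBQLN4 at 0.61 (SE 0.12, adjusted p = 0.000962) in the latter. With median-of-ratios scaling 2 genes of these lists fell from 1 to 3 days, against 5.51% of all genes. They were DDI2, which is in both lists (adjusted p = 0.0473), and the shuttle factor UBQLN1 on chromosome Z (adjusted p = 0.0334). Under that scaling NFE2L2, the sister factor of NFE2L1 that answers oxidative stress, fell from 3 to 6 days (adjusted p = 0.0408), and 1 shuttle factor fell from 1 to 6 days. UBQLN1 and NFE2L2 were named after their values were seen.

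VCP, the unfoldase that pulls tagged proteins out of membranes and complexes, and its cofactors had 3 of 13 genes that rose from 3 to 6 days and 5 from 1 to 6 days, near the shares of all genes (17.4% and 30.0%). VCP itself changed by 0.21 (SE 0.16, adjusted p = 0.396) and 0.32 (SE 0.16, adjusted p = 0.141), neither past the threshold. VCP lies on chromosome Z, and the division by W-linked transcripts moved with age. The part of that division in the values of VCP was not tested. UBXN6, UBXN2A and FAF2 rose in the former by 0.35 (SE 0.07, adjusted p = 0.00156), 0.27 (SE 0.06, adjusted p = 0.00373) and 0.36 (SE 0.11, adjusted p = 0.0217), and median-of-ratios scaling left 2 rises in it, without FAF2 (adjusted p = 0.0584), and 0 in the latter. Ubiquitin genes and the enzymes that activate ubiquitin had 0 of 5 from 3 to 6 days and 2 of 5 from 1 to 6 days, with UBB at 0.18 (SE 0.07, adjusted p = 0.0467). Under median-of-ratios scaling 0 of the 5 rose from 1 to 6 days (UBB, adjusted p = 0.844). Downstream, where peptidases cut the released peptides, 1 of 8 rose from 3 to 6 days, NPEPPS, by 0.42 (SE 0.07, adjusted p = 0.000244), and THOP1 was the other that rose from 1 to 6 days, by 0.22 (SE 0.08, adjusted p = 0.0265), a call lost under median-of-ratios scaling (adjusted p = 0.472). Autophagy, the other route of bulk degradation, had 5 of 17 that rose from 3 to 6 days, or 3 under median-of-ratios scaling, against 17.4% and 8.63% of all genes. Under that scaling 1 of the 17 fell from 1 to 3 days and 2 fell from 1 to 6 days, against 5.51% and 8.91% of all genes. The autophagy receptor SQSTM1 was the 1 that rose from 1 to 3 days, by 0.47 (SE 0.07, adjusted p = 0.000265), at 15.5 ± 1.71, 21.7 ± 2.46 and 20.7 ± 1.44 CPM at the 3 ages, while the receptor OPTN rose by 0.25 (SE 0.05, adjusted p = 0.000884) from 3 to 6 days and WIPI2, an early autophagosome factor, by 0.25 (SE 0.08, adjusted p = 0.0249), the last lost under that scaling (adjusted p = 0.106).

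The lid has a pair of sister complexes built on the same plan. Of the COP9 signalosome, which removes the ubiquitin-like NEDD8, 4 of 9 genes rose from 3 to 6 days and 5 from 1 to 6 days, with COPS7B and COPS3 rising by 0.37 (SE 0.08, adjusted p = 0.00294) and 0.18 (SE 0.06, adjusted p = 0.0265) in the former and COPS7A by 0.30 (SE 0.07, adjusted p = 0.002204) in the latter. Of the translation factor eIF3, 2, 3 and 8 of 11 rose from 1 to 3, 3 to 6 and 1 to 6 days. EIF3A, its largest subunit, rose by 0.21 (SE 0.07, adjusted p = 0.0468) and then by 0.23 (SE 0.07, adjusted p = 0.01498), while EIF3D and EIF3J rose from 1 to 6 days by 0.50 (SE 0.09, adjusted p = 0.000314) and 0.39 (SE 0.08, adjusted p = 0.000698). Median-of-ratios scaling left 1 and 2 rises of the signalosome from 3 to 6 and 1 to 6 days, and 0, 2 and 4 of eIF3 in the 3 comparisons. With it 1 gene of the signalosome fell from 1 to 3 days, against 5.51% of all genes.

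Folding chaperones had calls in both directions. A list labelled cytosolic chaperones held 21 genes tested. It also takes in the heat shock factors HSF1, HSF2 and HSF3, the mitochondrial HSPD1 and HSPE1, and SERPINH1 of the endoplasmic reticulum. Of the 21, 12 fell from 1 to 3 days (against 2.43% of all genes) and 13 rose from 3 to 6 days (against 17.4%). HSPD1 and SERPINH1 were among both the falls and the rises. The list medians were -0.35 and 0.68. HSPA8, the constitutive heat shock chaperone, was at 497 ± 58.5, 292 ± 59.6 and 597 ± 68.6 CPM at 1, 3 and 6 days. It fell by 0.78 (adjusted p = 7.75e-05) and rose by 1.05 (SE 0.11, adjusted p = 3.51e-06). All of its 3-day libraries, at 198 to 366 CPM, were below all 1-day libraries, at 375 to 558 CPM. AHSA1, which stimulates HSP90, and HSPA2 rose by 0.73 (SE 0.09, adjusted p = 1.32e-05) and 1.07 (SE 0.13, adjusted p = 1.51e-05) from 3 to 6 days. Of the 8 genes of the TRiC chaperonin, which folds actin and tubulin, 3 fell from 1 to 3 days and 8 rose from 3 to 6 days. CCT7, CCT4 and CCT8 rose by 0.45 (SE 0.06, adjusted p = 1.91e-05), 0.57 (SE 0.08, adjusted p = 4.63e-05) and 0.33 (SE 0.05, adjusted p = 0.000117). Under median-of-ratios scaling the falls were 13 and 5 and the rises 13 and 7. In the first interval the proteasome genes had a median of 0.03 with 0 falls, or -0.04 with 2 falls under that scaling, and no test compared the lists.

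**Figure D5:**
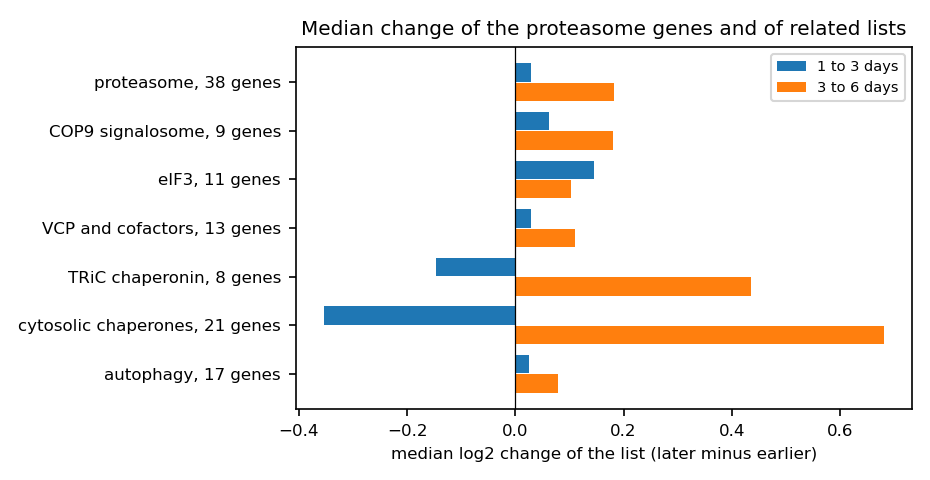
Median log2 change from 1 to 3 days (blue) and from 3 to 6 days (orange) over the proteasome genes and over related lists, later minus earlier. The list labelled cytosolic chaperones, which also holds heat shock factors and chaperones of mitochondria and endoplasmic reticulum, lies at -0.35 and 0.68. The 38 proteasome genes lie at 0.03 and 0.18, and no test of a list was made.

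By position the 38 genes were spread over 19 chromosomes, in the coordinates of GRCg6a. Chromosome 5 held 7 of them, from the alpha ring (PSMA1, PSMA3, PSMA6), the ATPase ring (PSMC1, PSMC3, PSMC6) and the lid (PSMD13). Of these, PSMC1 and PSMC3 rose from 3 to 6 days, and both calls were lost under median-of-ratios scaling (adjusted p = 0.0978 and 0.246). Chromosome 27 held 6, PSMB3, PSMC3IP, PSMC5, PSMD3, PSMD11 and PSME3, of which PSMC5 and PSMD11 rose in that interval. Of the 38 genes 42.1% rose in it, against 17.4% of all genes, and a part of position was not tested. PSMA5, PSMC3 and PSMC3IP overlapped another gene on the same strand and 6 members overlapped one on the other strand. The use of strand in counting is not given in the sources used here, so reads of such pairs cannot be told apart.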

How the data were processed

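RNA was measured in 21 retina libraries, 7 each at 1, 3 and 6 days, grouped by their titles. The authors deposited 1 table with 18631 genes. The deposited values were taken as CPM, inferred from the values themselves, and an offset of 0.0001, the lowest value in each column, was subtracted. The authors made the CPM table with STAR and Partek on GRCg6a, per the submitters' processing notes, while versions, annotation and strand use are not given in the sources used here. In each library, 94.5% to 95.7% of the low values were multiples of a single step (tolerance 0.1 of a step), which gave the read totals. Since some values gave no whole number of reads, no count test was run. Chromosome names came from a RefSeq gene table that held all 38 symbols.

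Genes with at least 0.5 CPM in 7 libraries were tested on the log2 scale, with 0.5 added to the CPM, by limma 3.58.1 (R 4.3.3). The model had a mean for each group, a variance trend and Benjamini-Hochberg adjustment within each comparison over 12614 genes, two-sided. Folds on this scale understate the change of genes near the pseudocount. The model was tested on simulated data. Members and lists were chosen with earlier results of these data known. Values in full are given, in each class, for the 3 members with the smallest adjusted p at any time and for each with a called change of at least 0.4, and other members are named with counts and ranges. Alternatives were quantile normalization, scaling by median of ratios, pseudocounts of 2.5 and 0.05, a floor of 2.5 CPM or none, robust empirical Bayes, array weights, the title letter or the W level as a covariate, 2 groups alone, W-linked libraries alone, and leaving out each library. The contrast of the intervals and the tests of W level were added after the data were seen.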

Additional observations from a re-analysis of the deposited data

Results flagged for a closer look

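Each of the 38 genes was screened at each age for a library far from the other 6, by Dixon's criterion at 95%, which flags about 1 in 20 sets by chance. Of 114 sets 4 were picked out. PSMA3 at 1 day was highest in C19L, at 11.2737 CPM, with the next library at 9.28 CPM. PSMB2 at 6 days was highest in C62L, at 11.6783 CPM, with the next at 10.2 CPM. PSMD7 at 1 day was highest in C17L, at 20.9517 CPM, with the next at 18.4 CPM. PSMG1 at 6 days was lowest in C65L, at 6.24647 CPM, with the next at 7.53 CPM. No cause was tested. PSMB2 kept its rise from 3 to 6 days without C62L, while its rise from 1 to 6 days was lost without that library, and without C10R or C18R, with a highest adjusted p of 0.0612 from limma.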

How the results depend on the processing

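No paired analysis was possible because the groups share 0 replicate numbers. From 1 to 3 days the members that rose numbered 0 under median-of-ratios scaling (2 fell), 1 under quantile normalization (2 fell), 1 with the 2 groups alone, 0 with the W covariate and median-of-ratios scaling together (2 fell), and 0 with W-linked libraries alone. The members' median in that interval reversed, to -0.0422 under median-of-ratios scaling, -0.0354 under quantile normalization and -0.0521 with the W covariate and median of ratios. From 3 to 6 days the rises were 10 under quantile normalization, 10 with the W covariate and median of ratios, and 5 with W-linked libraries alone, and the median was 0.11 under median of ratios, 0.10 under quantile normalization and 0.10 with the W covariate and median of ratios. From 1 to 6 days the rises were 5, 5 and 4 under these 3 settings and 7 with W-linked libraries alone, with medians of 0.0851, 0.0748 and 0.0622. Members that differed at any time numbered 12 under median of ratios (31.6%, against 27.7% of all genes) and 11 under quantile normalization (against 26.7%). They numbered 11 with the W covariate and median of ratios, and 10 with W-linked libraries alone, where fewer samples were tested. With no filter the members' median minus that of all genes was 0.16 from 3 to 6 and 0.16 from 1 to 6 days. PSMB7 from 1 to 6 days reversed under quantile normalization, to -0.0154. The cause was not tested.

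Leaving out 1 library at a time gave 1 to 5 rises and 0 to 1 falls from 1 to 3 days, 14 to 17 rises from 3 to 6 days, 18 to 22 rises from 1 to 6 days and 20 to 24 members at any time. From 1 to 3 days the count was 5 without C42L (with 1 fall), and 1 without C18R, C33R or C34L. The median ranges were 0.01 to 0.04, 0.16 to 0.20 and 0.22 to 0.24. Calls kept under every setting and without every library were PSMB1, PSMC5, PSMD1, PSMD5 and PSMD6 from 3 to 6 days, PSMD1 and PSMD2 from 1 to 6 days, and 0 from 1 to 3 days. Of 1326 other values of single genes under these settings 1193 kept their side of the threshold and 132 lost it in the same direction. PSMG4 was the lowest member, at 0.683 to 1.73 CPM, where the pseudocount damps a change.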
